A study of Mus musculus with 45 samples.

Results

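The complement and coagulation factors described here are 46 genes named as a module by the function of their products, a rule that uses no measured value. In the mouse liver RNA-Seq counts, 45 of the 46 had an identifier, out of 39179 Ensembl genes counted. *Klkb1*, the gene of plasma prekallikrein, had none and is not analysed here. All 45 passed the filter for a detected gene (more than 4 reads in any of the 45 mice), as did 17464 genes in all. Of the 45, 43 averaged at least 10 CPM (read counts scaled to a common library size), and the other 2, *Cfd* and *C5ar1*, were near the limit of detection.

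The livers came from female C57BL/6 mice in 9 groups of 5, with 1 library for each mouse. The control group received sesame oil vehicle by gavage. The treated groups received TCDD, a persistent chlorinated dioxin that binds the aryl hydrocarbon receptor (AhR), in the same oil at 0.01, 0.03 or 0.1, at 0.3 or 1, or at 3, 10 or 30 μg/kg. Dosing was repeated at 4-day intervals over 28 days and began in juvenile animals. The sample labels describe the mice of every group as ovariectomized, which the study's methods do not mention, and the labels name a daily as well as a 4-day schedule, of which the methods give the second.

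Coagulation factors circulate as inactive precursors that are cut in sequence until thrombin turns fibrinogen into fibrin, and plasmin, made from plasminogen, dissolves the clot again. Complement is a parallel cascade with classical, lectin and alternative routes to the cleavage of C3, after which C5b, C6, C7, C8 and C9 assemble into a membrane pore. Hepatocytes make most of the circulating proteins of both systems, while C1q, properdin and the C5a receptor are made mainly by macrophages and other myeloid cells.

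Libraries held 11767284 to 56509899 reads on genes, with a median of 17225047. The AhR target *Cyp1a1* was at 7.50 ± 6.32 CPM in vehicle (SD, n = 5) and at 7627 ± 1186 CPM at 30 μg/kg (SD, n = 5). The summed CPM of 8 hepatocyte markers lay between 110483 and 170032 over all 45 mice, with no marker at 0 reads. *Alb* made up most of that sum (mean 111474 CPM in vehicle), and 6 of the 8 markers were called lower at 30 μg/kg. A pair of mice stood apart from their groups. Replicate 5 at 0.01 μg/kg had 69.7 CPM of *Cyp1a1* against 1.18 to 4.54 in the other 4 mice, and replicate 5 at 0.1 μg/kg, the deepest library, had 348 CPM of the acute-phase gene *Saa1* against 16.4 to 25.8. Results that rest on either are given with and without it. CPM values below are scaled by the trimmed mean of M-values (TMM).

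At 30 μg/kg, 24 of the 45 genes were differentially expressed against vehicle (edgeR quasi-likelihood test, adjusted p under 0.05 over 17464 genes), and 21 were not. The same call was made for 29.6% of all genes tested and for 34.7% of genes averaging at least 10 CPM. Of the 24, 18 fell and 6 rose. Falls were called for 14.1% of all genes and for 23.6% of those averaging at least 10 CPM, and rises for 15.5% and 11.1%. The falls took in all 3 fibrinogen chains, plasminogen, factor VII, antithrombin, protein S, C9, the C4b-binding protein and both mannose-binding lectins. The rises took in the 3 chains of C1q, *C6*, *C8b* and the C5a receptor *C5ar1*. Only *C5ar1* and *C6* changed by a fold of at least 2, which 11.4% of all genes did. The median log2 fold change of the 45 was -0.17, against 0.02 over all genes tested. In bulk liver RNA, fewer cells of a type and less RNA per cell cannot be told apart.

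The count of 24 depended little on the tool, but its split depended on the scaling between libraries. With DESeq2 25 genes were called and with limma 23. Without TMM, dividing by library size alone, the median log2 fold change of all genes moved from 0.02 to 0.23. Of the members 25 were then called, 11 higher and 14 lower. Of all 17464 genes 6218 (35.6%) were then called, 1222 of them lower and the rest higher. The falls of *F13b*, *Mbl1*, *Serpinf2* and *Serping1* were lost under that scaling. *Vtn*, *F9*, *F10*, *F12* and *Cfi* were then called higher. Changes and first doses below are those of edgeR with TMM unless another is named.

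**Figure D1:**
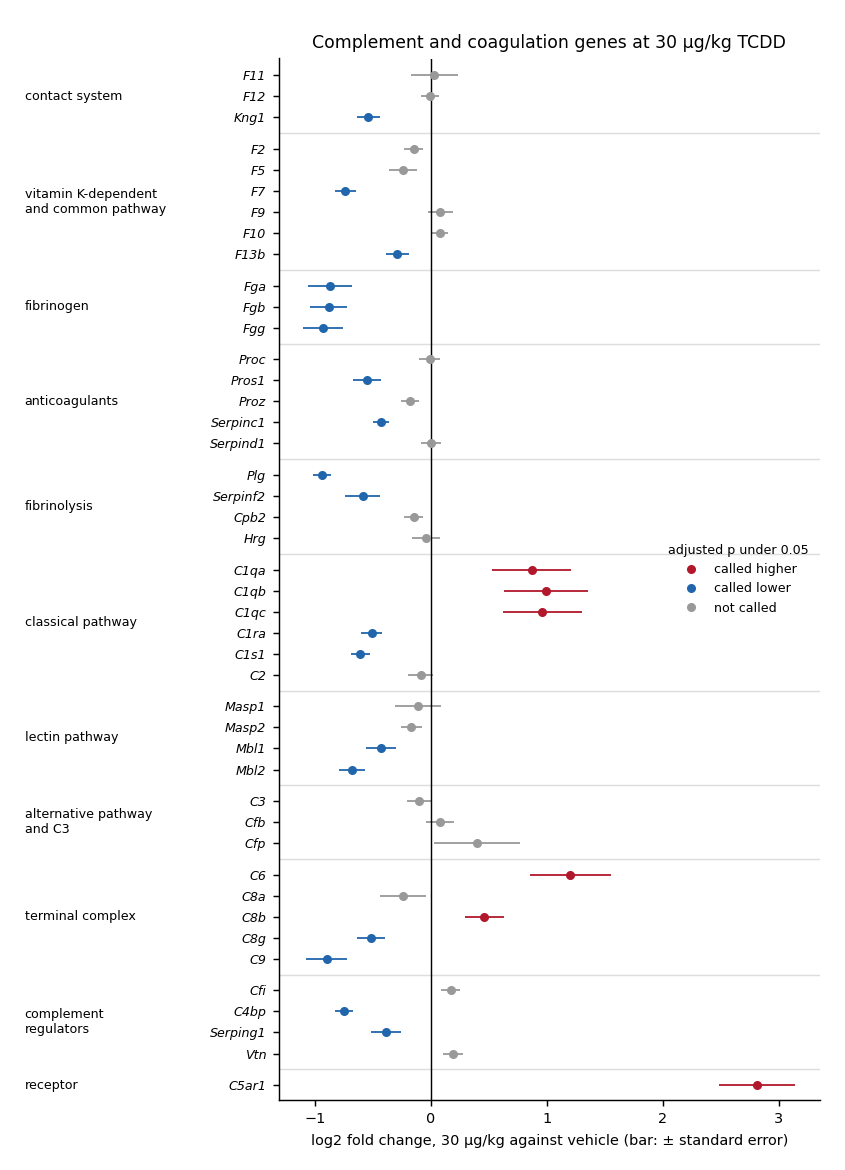
Log2 fold change at 30 μg/kg TCDD against vehicle (x axis) with its standard error (bars) for 44 genes grouped by role (y axis), 5 mice in each group; *Cfd*, at 0 reads in most mice, is left out. Red points (6) and blue points (18) passed the edgeR test and grey points did not. The 3 fibrinogen chains, *Plg* and *C9* lie between -0.94 and -0.87, and *C5ar1* lies farthest right at 2.81.

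The 3 fibrinogen genes lie side by side on chromosome 3 and code for the chains of the protein that forms the clot. In the GRCm38 build *Fgg* spans chr3:83007724-83015049 on the plus strand, *Fga* chr3:83026076-83033627 on the plus strand and *Fgb* chr3:83040141-83049863 on the minus strand. Per kilobase of exon they were, after *C3* (1543 CPM per kb), the most abundant of the 45 in vehicle liver, at 1349.5 CPM per kb for *Fgg*, 1237 for *Fga* and 1001 for *Fgb*. Because the 3 genes fell together, the sequence before each start site is shown. It is the RefSeq promoter sequence (GRCm38.p6), cut so that it ends before the annotated transcript. Capitals mark matches, on either strand, to CTGGGA, the core of the STAT3 element of acute-phase genes, and to GCGTG, the core bound by AhR with ARNT. *Fga* is chr3:83025903-83026075 (plus strand), *Fgb* chr3:83049864-83050113 (minus strand) and *Fgg* chr3:83007474-83007723 (plus strand).
Fga: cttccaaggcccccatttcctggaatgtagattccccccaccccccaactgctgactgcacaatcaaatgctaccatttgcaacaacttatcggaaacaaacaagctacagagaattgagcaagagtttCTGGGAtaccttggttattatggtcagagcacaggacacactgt
Fgb: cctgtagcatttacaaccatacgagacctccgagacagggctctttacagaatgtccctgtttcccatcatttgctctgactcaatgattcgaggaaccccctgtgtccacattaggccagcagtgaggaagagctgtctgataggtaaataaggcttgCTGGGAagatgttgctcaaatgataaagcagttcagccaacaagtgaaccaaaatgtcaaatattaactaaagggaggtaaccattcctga
Fgg: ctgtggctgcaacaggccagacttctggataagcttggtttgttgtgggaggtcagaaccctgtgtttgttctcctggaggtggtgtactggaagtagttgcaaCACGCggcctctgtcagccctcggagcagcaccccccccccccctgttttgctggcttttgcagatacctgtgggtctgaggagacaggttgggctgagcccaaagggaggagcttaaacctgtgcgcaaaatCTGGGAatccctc

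All 3 windows held CTGGGA, starting 121, 91 and 13 bases before the RefSeq start of *Fga*, *Fgb* and *Fgg*. GCGTG was found only in *Fgg* among these 3, as CACGC on the printed strand. RefSeq windows of 250 bases were found for 37 of the 46 genes (39 windows). CTGGGA was in 41.0% of those windows and in 27% of the windows of all genes. GCGTG was in 12.8% against 28.2%. These are matches of letters, and no binding was measured.

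Fibrinogen transcripts fell by nearly equal amounts. *Fga* was at 3522, 4226, 3913, 3915 and 3038 CPM in the 5 vehicle mice and at 1927, 1968, 2342, 2299 and 1621 CPM at 30 μg/kg. *Fgb* was at 3687, 4422, 4049, 3556 and 3362 CPM in vehicle and at 1908, 1940.5, 2279.9, 2201 and 2023 CPM at 30 μg/kg. *Fgg* was at 2760.3, 3187, 3003, 2671 and 2501 CPM in vehicle and at 1415, 1339, 1771, 1675 and 1214 CPM at 30 μg/kg. Every treated mouse was below every vehicle mouse for all 3 genes (exact permutation test, two-sided, p = 0.007937 for each, the smallest that 5 against 5 mice allow). The log2 fold changes were -0.87 ± 0.19 for *Fga*, -0.88 ± 0.16 for *Fgb* and -0.93 ± 0.17 for *Fgg* (standard error; adjusted p = 0.0003677, 4.646e-05 and 3.108e-05). The 3 genes together took 0.854 to 1.12% of the reads on genes in vehicle mice and 0.515 to 0.705% at 30 μg/kg.

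The ratio between the chains hardly moved. The log2 ratio of *Fga* to *Fgb* averaged -0.04 in vehicle and -0.04 at 30 μg/kg, and over all 45 mice it stayed between -0.32 and 0.33. The ratio of *Fga* to *Fgg* averaged 0.39 and 0.46. Even replicate 5 at 0.1 μg/kg, with 8534 CPM of *Fga*, had 8534 CPM of *Fgb* and 5974 CPM of *Fgg*, each the highest of its group. At the doses between, the fall was first called at 10 μg/kg for *Fgb* (log2 fold change -0.56, adjusted p = 0.01348) and *Fgg* (-0.48, adjusted p = 0.04316), where *Fga* was at -0.42 (adjusted p = 0.1243). The dose of the first call varied with the fit. Both calls at 10 μg/kg were lost without scaling, while *Fgb* was called at 3 μg/kg with DESeq2 (adjusted p = 0.04989) and without the mice that stood apart (adjusted p = 0.01334). Without those mice *Fgg* was called at 3 μg/kg as well (adjusted p = 0.03262). A fit of only the groups compared called all 3 chains at 3 μg/kg (adjusted p = 0.03352 for *Fga*, 0.01162 for *Fgb* and 0.01012 for *Fgg*). In that fit *Fga* was called at 10 μg/kg as well (adjusted p = 0.02097). The *Fgg* call at 10 μg/kg was lost on leaving out any 1 of 7 mice (vehicle replicates 1 to 4, or replicates 2, 3 or 5 at 10 μg/kg), with adjusted p from 0.05585 to 0.1125. A difference between 30 and 10 μg/kg was not called for any chain.

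**Figure D2:**
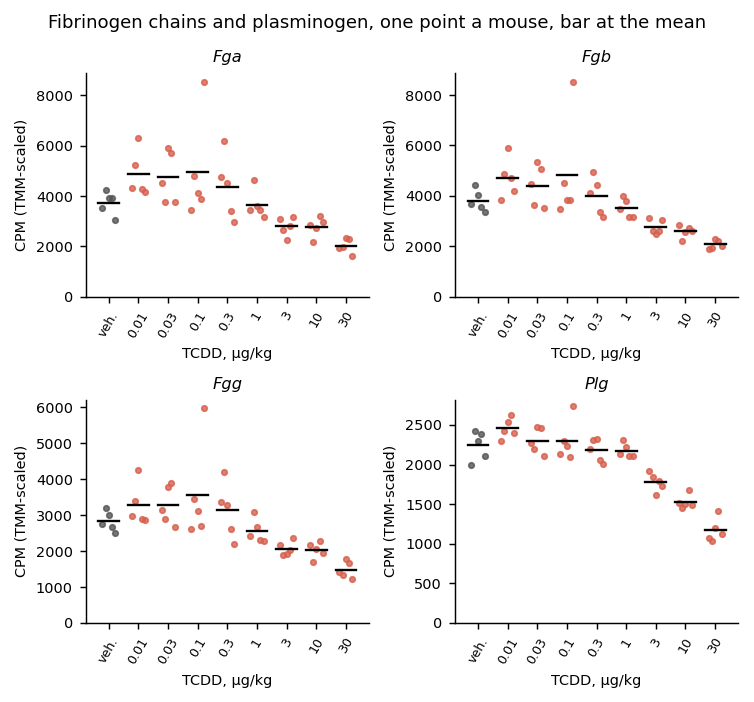
TMM-scaled CPM (y axes, from 0) of *Fga*, *Fgb*, *Fgg* and *Plg* by TCDD dose (x axes), 1 point for each of 5 mice in a group and a bar at the mean. The 5 mice at 30 μg/kg lie below the 5 vehicle mice in each panel, and 1 mouse at 0.1 μg/kg is the highest of all for the 3 fibrinogen chains.

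Other clotting factors divided into genes that fell and genes that were not called. *F7*, whose product starts coagulation with tissue factor, was at 133, 141, 134, 151 and 148 CPM in vehicle and at 76.9, 71.2, 98.7, 102 and 73.6 CPM at 30 μg/kg. The groups did not overlap, and *F7* fell by 0.74 on the log2 scale at 30 μg/kg (adjusted p = 1.559e-08). It fell from 3 μg/kg upward (-0.38 at 3 and -0.43 at 10 μg/kg). Its neighbours on chromosome 8 were not called with TMM. *F7* ends at base 13035809 and *F10* starts at base 13037308. *F10* codes for the enzyme that makes thrombin and had a log2 fold change of 0.08 ± 0.07, and *Proz*, the protein Z gene beyond it, had -0.18 ± 0.08. Without scaling *F10* was called higher at 10 (0.27, adjusted p = 0.002909) and 30 μg/kg (0.29, adjusted p = 0.0007748). *Proz* was called lower at 30 μg/kg (-0.23) without vehicle replicate 1 and without replicate 4 or 5 of that dose (adjusted p = 0.03929, 0.04191 and 0.04846). The log2 ratio of *F10* to *F7* was 1.59 to 1.79 in vehicle mice and 2.29 to 2.77 at 30 μg/kg, a pair chosen with the values known.

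*F13b*, the carrier subunit of the enzyme that cross-links fibrin, fell by 0.29 on the log2 scale (adjusted p = 0.0275), but its groups overlapped (244 to 389 CPM in vehicle, 246 to 297 CPM at 30 μg/kg). The call was lost without any 1 of vehicle replicates 2, 3 or 4 or of replicates 3 or 5 at 30 μg/kg (adjusted p from 0.05183 to 0.1472), and when only vehicle and 30 μg/kg mice were fitted. Prothrombin (*F2*), *F5* and *F9* had log2 fold changes of -0.15, -0.24 and 0.08 with adjusted p of 0.1512, 0.1377 and 0.6487. Without replicate 5 at 30 μg/kg *F2* was called lower (-0.22, adjusted p = 0.03975). In the contact system *Kng1*, the kininogen gene that carries bradykinin, fell by 0.54 on the log2 scale. It was at 2273, 2549.6, 2634, 2207 and 2674 CPM in vehicle and at 1635, 1700.3, 1800.3, 1798 and 1527 CPM at 30 μg/kg, with no overlap (adjusted p = 4.399e-05). Reads of *Kng1* and its close copy *Kng2* may not be fully separable. *F11* and *F12* were not called, at 0.03 ± 0.20 and -0.01 ± 0.08.

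Both called anticoagulant genes fell. Antithrombin (*Serpinc1*), the main inhibitor of thrombin and factor Xa, was at 2282, 2221, 2123, 2299 and 2308 CPM in vehicle and at 1544, 1544, 1692, 1891 and 1644 CPM at 30 μg/kg. The groups did not overlap, and the log2 fold change was -0.43 ± 0.07 (adjusted p = 1.41e-06). Its mean was lower at each successive dose, from 2246 CPM in vehicle to 2190.2 at 0.01 and 1864 at 3 μg/kg, the first dose called. That call was lost without scaling, and DESeq2 called *Serpinc1* at 1 μg/kg as well (-0.18, adjusted p = 0.03759). *Pros1*, the protein S gene, fell by 0.55 on the log2 scale (67.7 to 88.9 CPM in vehicle, 44.6 to 59.5 CPM at 30 μg/kg). *Proc*, the gene of protein C, the protease that protein S assists, was not called (-0.01 ± 0.09), nor was heparin cofactor II (*Serpind1*, 0.00 ± 0.09).

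Plasminogen had the smallest adjusted p of the 45 genes. *Plg* (chr17:12378608-12419385, plus strand) was at 1999, 2423, 2298, 2382 and 2107 CPM in vehicle and at 1071, 1035, 1193, 1417 and 1121 CPM at 30 μg/kg. The highest treated mouse was below the lowest vehicle mouse. The log2 fold change was -0.94 ± 0.08 (1.92-fold lower, adjusted p = 4.098e-12). *Plg* fell at 3 μg/kg (-0.33, a call lost without scaling), at 10 (-0.55) and at 30 μg/kg. It was the only gene of the 45 called between 30 and 10 μg/kg (-0.39 ± 0.08, adjusted p = 0.008559), a comparison in which 0.613% of all genes were called. Without replicate 2 at 30 μg/kg that call was lost (adjusted p = 0.05514), and without TMM or in a fit of those 2 groups alone no member was called. The plasmin inhibitor gene *Serpinf2* fell by 0.59 on the log2 scale (590.3 to 696 CPM in vehicle, 404 to 478 CPM at 30 μg/kg). *Cpb2* and *Hrg*, whose products slow fibrinolysis or bind plasminogen, had -0.15 ± 0.08 and -0.04 ± 0.12 and were not called. Without replicate 4 at 30 μg/kg *Cpb2* was called lower (-0.25, adjusted p = 0.01236).

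In the classical complement route the 3 chains of the recognition subunit rose, and 2 of 3 proteases, *C1ra* and *C1s1*, fell. C1q is built from chains coded by *C1qa*, *C1qb* and *C1qc*, which lie together on chromosome 4 (chr4:136880129-136898803 from the start of *C1qb* to the end of *C1qa*, minus strand). *C1qa* was at 23.1, 15.3, 24.3, 22.1 and 31.4 CPM in vehicle and at 34.4, 50.8, 57.0, 20.1 and 51.1 CPM at 30 μg/kg. *C1qb* was at 21.6, 17.2, 21.8, 20.7 and 30.8 CPM in vehicle and at 33.9, 48.2, 56.7, 19.1 and 65.4 CPM at 30 μg/kg. *C1qc* was at 21.9, 19.1, 19.7, 21.5 and 27.7 CPM in vehicle and at 34.8, 48.1, 50.9, 17.7 and 63.7 CPM at 30 μg/kg. In all, 4 treated mice were above every vehicle mouse for each chain, and replicate 4 was within or below the vehicle range.

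The log2 fold changes of the C1q chains were 0.87 ± 0.34, 0.99 ± 0.36 and 0.96 ± 0.34 (adjusted p = 0.04654, 0.03262 and 0.02676). With 1 mouse left out the log2 fold changes stayed at 0.73 to 1.04, 0.8 to 1.17 and 0.77 to 1.15. The calls lay near the threshold. They were lost for *C1qa* and *C1qb* on leaving out vehicle replicate 1, 2, 3 or 4 or replicate 2, 3 or 5 at 30 μg/kg, with adjusted p up to 0.1281 and 0.1123. For *C1qc* the call was lost without vehicle replicate 2 or 3 or replicate 2, 3 or 5 at 30 μg/kg, with adjusted p up to 0.104. The *C1qa* call was also lost with limma (adjusted p = 0.05758).

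Of 9 Kupffer cell and macrophage markers, 2 (22.2%) rose at 30 μg/kg (*Cd68*, 1.08, and *Csf1r*, 1.16 on the log2 scale), against 15.5% of all genes. The other 7 were not called. All 9 markers had log2 fold changes above 0. Their summed CPM was 172 to 272 in vehicle mice and 153 to 447 at 30 μg/kg. Replicate 4, the lowest at 30 μg/kg for all 3 C1q chains, had the 153. The sum of the 3 C1q chains divided by the sum of the markers was 0.300 to 0.331 in vehicle mice. It was 0.332 to 0.404 at 10 μg/kg and 0.329 to 0.417 at 30 μg/kg. The part of cell number in the C1q result was not tested.

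**Figure D3:**
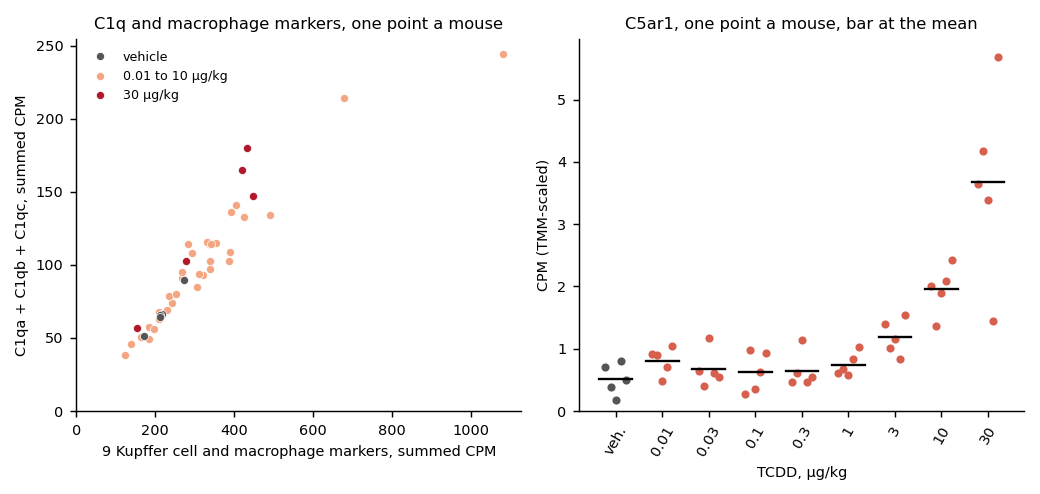
Left, summed CPM of *C1qa*, *C1qb* and *C1qc* (y axis) against summed CPM of 9 Kupffer cell and macrophage markers (x axis), 1 point for each of 45 mice; right, TMM-scaled CPM of *C5ar1* (y axis) by TCDD dose, 1 point for each mouse and a bar at the mean. The 0.01 μg/kg mouse that stood apart is the point at 1079.8 and 244 CPM, and *C5ar1* means climb from 1.19 CPM at 3 μg/kg to 3.67 CPM at 30 μg/kg.

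*C1s1* and *C1ra* code for the proteases that C1q activates. *C1s1* was at 496, 506, 510.3, 458 and 447 CPM in vehicle and at 307, 306, 323, 351 and 297 CPM at 30 μg/kg. The groups did not overlap, and *C1s1* fell by 0.61 on the log2 scale (adjusted p = 2.651e-08). It also had the lowest dose of any fall, being called at 1 μg/kg (-0.39 ± 0.08, adjusted p = 0.001347) and at every higher dose. These calls held without any single mouse. DESeq2 called *C1s1* lower at 0.3 μg/kg as well (-0.28, adjusted p = 0.01624). *C1ra* fell by 0.51 on the log2 scale at 30 μg/kg (108 to 128 CPM in vehicle, 74.6 to 88.2 CPM treated). At 10 μg/kg it was not called, but was with DESeq2 (-0.25, adjusted p = 0.04632) and in the fits of only the groups compared (adjusted p = 0.03978) and without the mice that stood apart (adjusted p = 0.04069). The copies *C1s2* and *C1rb* averaged 0.0982 and 0.345 CPM in vehicle, but how reads shared with these near-identical copies were counted leaves the values of *C1s1* and *C1ra* uncertain. *C2*, the next protease of the route, was at -0.09 ± 0.11 and was not called.

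In the lectin route both mannose-binding lectins fell and their proteases were not called. *Mbl2* was at 725, 841, 897, 647 and 738 CPM in vehicle and at 474, 504, 513, 501 and 411 CPM at 30 μg/kg, with no overlap. Its log2 fold change was -0.55 at 10 μg/kg and -0.68 ± 0.11 at 30 μg/kg (adjusted p = 3.284e-06). *Mbl1* fell by 0.43 on the log2 scale (142 to 196 CPM in vehicle, 102 to 139 CPM at 30 μg/kg). *Masp1* and *Masp2*, the proteases that the lectins carry, had log2 fold changes of -0.11 ± 0.20 and -0.17 ± 0.09. Without replicate 4 at 30 μg/kg *Masp2* was called lower (-0.25, adjusted p = 0.04532).

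None of the 4 genes of the alternative route and C3 was called at 30 μg/kg by edgeR, DESeq2 or limma, and none had an unadjusted p under 0.05. *C3*, the convergence point of all routes and the most abundant of the 45, was at 6496 to 8899.8 CPM in vehicle and at 6160.4 to 8038 CPM at 30 μg/kg (-0.10 ± 0.11). *Cfb* had 0.08 ± 0.12, and properdin (*Cfp*), a myeloid product, 0.40 ± 0.37. Factor D (*Cfd*), made chiefly by fat, had reads in 7 mice only, 1 in each of 7 groups. It passed the filter through replicate 5 at 0.01 μg/kg, with 0.397 CPM, and was not tested without that mouse. The 10 mice at 10 and 30 μg/kg had 0 reads, and so had 4 of the 5 vehicle mice, so no fold change is given.

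The terminal pore genes moved in opposite directions. *C9*, which forms the wall of the pore, was at 192, 224, 258, 191 and 188 CPM in vehicle and at 85.2, 125, 111, 140.1 and 102 CPM at 30 μg/kg. *C6*, which joins C5b first, was at 7.50, 7.06, 12.1, 6.25 and 11 CPM in vehicle and at 15.8, 24.6, 25, 16.4 and 19.2 CPM at 30 μg/kg. Neither gene's groups overlapped, *C9* lower and *C6* higher in all 5 treated mice. *C9* fell by 0.90 ± 0.18 on the log2 scale (adjusted p = 0.0001135) and *C6* rose by 1.20 ± 0.35 (2.29-fold, adjusted p = 0.007088). Both genes lie on chromosome 15, *C6* at chr15:4727175-4814967 and *C9* at chr15:6445327-6498751, both on the plus strand. The window before *C6* (chr15:4726960-4727174, plus strand, GRCm38.p6), shown as the one gene of the pore with a fold of at least 2, held neither motif, so it has no capitals.
C6: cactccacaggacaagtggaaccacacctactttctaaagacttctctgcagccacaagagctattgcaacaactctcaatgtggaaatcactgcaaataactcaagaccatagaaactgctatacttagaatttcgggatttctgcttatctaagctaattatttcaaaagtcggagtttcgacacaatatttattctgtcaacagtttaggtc

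*C8b* rose by 0.46 on the log2 scale at 30 μg/kg (adjusted p = 0.03765) while *C8g* fell by 0.52 (adjusted p = 0.0007477), though both products belong to the C8 complex with the *C8a* chain (-0.24 ± 0.20, not called). *C8b* was at 129.9 to 172 CPM in vehicle and at 134 to 261 CPM treated, and the groups overlapped. The log2 ratio of *C8b* to *C8g* was -1.29 to -0.72 in vehicle mice and -0.40 to 0.40 at 30 μg/kg, and that of *C8b* to its neighbour *C8a* was -0.95 to -0.47 and -0.30 to 0.16. These pairs were chosen with the values known. The *C8b* call was lost without vehicle replicate 1, 4 or 5 or without replicate 2, 3 or 4 at 30 μg/kg (adjusted p from 0.06036 to 0.1459), and the *C8g* call held in every such fit. The *C8b* rise was also called at 3 and 10 μg/kg. At 3 μg/kg the call was lost without vehicle replicate 1, 2, 4 or 5 or replicate 1, 2 or 5 of that dose (adjusted p up to 0.1386). At 10 μg/kg it was lost without replicate 1 of that dose (adjusted p = 0.05852). Over the 8 doses the log2 fold change of *C8b* was 0.33 to 0.71, highest at 0.01 μg/kg. No trend over dose rank was called for it (adjusted p = 0.3178).

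*C6* was not graded with dose. It was called at 1 μg/kg (log2 fold change 1.4), 3 (1.71), 10 (1.25) and 30 μg/kg (1.20), and its mean was highest at 3 μg/kg (28.8 ± 13.7 CPM, SD, n = 5). At 0.01 μg/kg it was at 15.2, 12.6, 14.3, 13.7 and 44.3 CPM and at 0.03 μg/kg at 13.2, 15.0, 13.1, 18.4 and 19.2 CPM. All 10 of these mice were above the highest vehicle mouse, at 12.1 CPM, yet neither dose was called (adjusted p = 0.2391 and 0.3327). A trend over dose rank was called for *C6* over all 45 mice (adjusted p = 0.008165) but not over the 40 TCDD mice alone. The call at 1 μg/kg was lost without vehicle replicate 1, 2 or 4 or without replicate 2 at 1 μg/kg (adjusted p from 0.05438 to 0.1954).

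**Figure D4:**
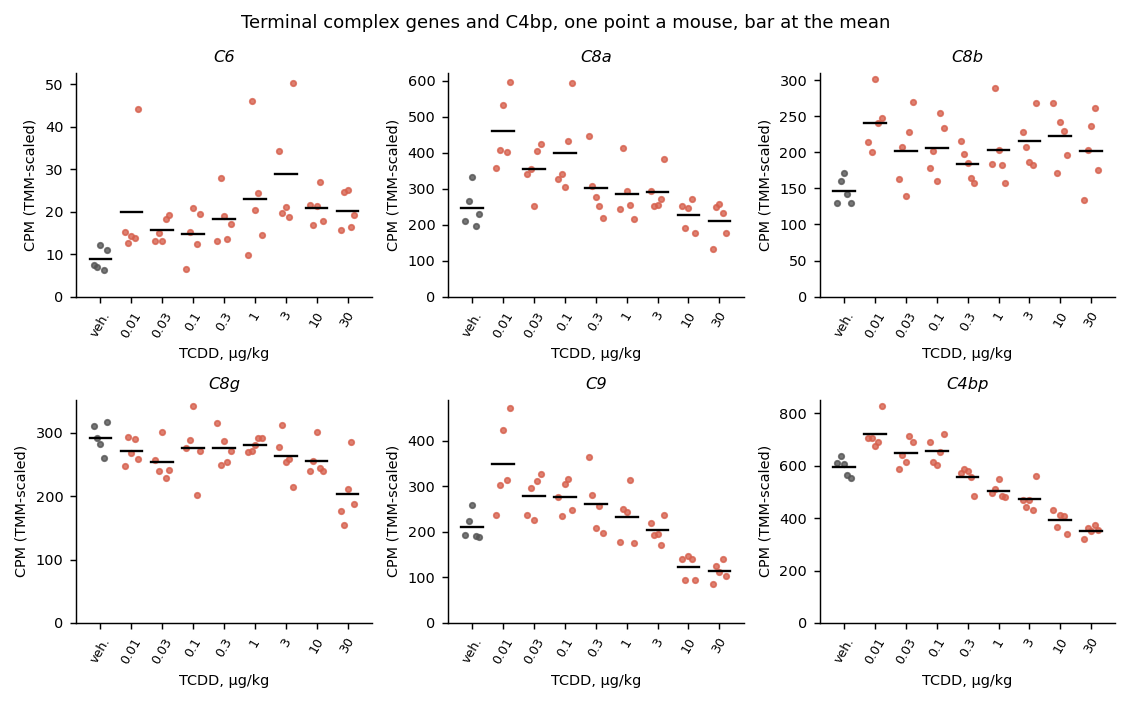
TMM-scaled CPM (y axes, from 0) of the 5 terminal complex genes and *C4bp* by TCDD dose (x axes), 1 point for each of 5 mice in a group and a bar at the mean. *C6* is above vehicle in most treated mice at all doses, *C9* and *C4bp* are lower at 10 and 30 μg/kg, and at 30 μg/kg *C8b* is higher and *C8g* lower than in vehicle.

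Among the regulators, *C4bp*, whose product blocks the C4b-containing convertase, was at 610.3, 637, 607, 566 and 552 CPM in vehicle and at 322, 362, 353, 375 and 354 CPM at 30 μg/kg. The treated mice lay far below the vehicle mice, and *C4bp* fell by 0.75 on the log2 scale (adjusted p = 7.888e-10), after falls of 0.32 at 3 and 0.60 at 10 μg/kg. The *C4bp* call at 3 μg/kg was lost without scaling. *Serping1*, the C1 inhibitor gene, fell by 0.39 on the log2 scale at 30 μg/kg (489 to 630.4 CPM in vehicle, 360.1 to 476 CPM treated). That call was lost without replicate 1 at 30 μg/kg (adjusted p = 0.05715). *Cfi*, the protease that cleaves C4b and C3b with such cofactors, rose at 3 and 10 μg/kg (log2 fold change 0.27 and 0.22). It was at 0.17 at 30 μg/kg (adjusted p = 0.08952). Values were similar at 0.01 and 0.03 μg/kg, at 0.27 and 0.25, but were not called (adjusted p = 0.2391 and 0.2073). No trend over dose rank was called for *Cfi* (adjusted p = 0.2857). At 30 μg/kg it was called with DESeq2 (adjusted p = 0.04944), with filterByExpr (adjusted p = 0.04301) and without scaling (0.39, adjusted p = 0.0001361). Each *Cfi* call was lost without single mice, 5 of 10 at 3 μg/kg (vehicle replicates 1 and 5 and replicates 1, 4 and 5 of the dose, adjusted p up to 0.0942) and 8 of 10 at 10 μg/kg (all but vehicle replicates 2 and 3, adjusted p up to 0.1535). Vitronectin (*Vtn*) rose at 10 μg/kg (0.31 ± 0.09, adjusted p = 0.0133, and 0.05312 without replicate 1 of that dose). At 30 μg/kg it was at 0.19 (adjusted p = 0.1055), and was called without scaling (0.40, adjusted p = 0.000707) and without replicate 1 of that dose (0.25, adjusted p = 0.03989).

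The largest rise was that of *C5ar1*, the receptor for the anaphylatoxin C5a. It was at 0.708, 0.382, 0.185, 0.805 and 0.505 CPM in vehicle (3 to 13 reads in each mouse) and at 3.65, 4.18, 3.39, 1.45 and 5.69 CPM at 30 μg/kg (26 to 96 reads). Every treated mouse was above every vehicle mouse, and the log2 fold change was 2.81 ± 0.33 (7.02-fold, adjusted p = 1.014e-08). With limma on variance-stabilized counts the difference was 1.41 and was called. It rose with dose, by 1.20 at 3 and 1.93 at 10 μg/kg on the log2 scale. The call at 3 μg/kg was lost without vehicle replicate 2, 3 or 5 or replicate 1 or 5 of that dose (adjusted p up to 0.09388). Of 8 neutrophil markers tested, 3 rose at 30 μg/kg (*S100a8*, *S100a9* and *Csf3r*), against 15.5% of all genes. The other 5 (*Mpo*, *Elane*, *Camp*, *Ngp* and *Ltf*) averaged at most 0.297 CPM and were not called. The list's summed CPM was 0.890 to 2.07 in vehicle and 3.34 to 10.1 at 30 μg/kg, and *Ly6g* was at 0 reads in both groups. The mean sum was 6.56 CPM at 3 μg/kg, where 1 mouse was at 18.3 CPM, 5.8 CPM at 10 and 7.22 CPM at 30 μg/kg. Replicate 4, with the lowest *C5ar1* of the 5 at 30 μg/kg, also had the lowest summed macrophage markers. The part of either cell type in the *C5ar1* result was not tested.

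Across the doses the number of the 45 genes called against the shared vehicle group grew from 2 at 1 μg/kg (1.76% of all genes called) to 9 at 3 (7.54%), 16 at 10 (15.9%) and 24 at 30 μg/kg. No member was called at 0.01, 0.03, 0.1 or 0.3 μg/kg by edgeR, where 0%, 0.0573%, 0.0229% and 0.464% of all genes were called. At those doses 15, 9, 8 and 3 members had an unadjusted p under 0.05, but the share of all genes at that threshold was not counted. DESeq2 called 3, 0, 0 and 1 (0.195%, 0.384%, 0.0286% and 0.767% of all genes), and limma called none. The 3 at 0.01 μg/kg, *C8a*, *C8b* and *C9*, were higher than in vehicle (0.89, 0.71 and 0.73 on the log2 scale, adjusted p = 0.02548, 0.04563 and 0.04574 by DESeq2). Replicate 5, which stood apart, was the highest of that group for *C8a* and *C9*. Without both mice that stood apart DESeq2 called none of the 3 (0.78, 0.70 and 0.60, adjusted p = 0.1015, 0.1189 and 0.2302). The 45 genes together took 3.48 to 3.99% of reads on genes in vehicle mice, 4.05 to 4.79% at 0.01 μg/kg and 3.17 to 3.58% at 30 μg/kg.

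Of the 26 genes called at some dose, 2 were first called at 1 μg/kg (*C6* higher, *C1s1* lower). At 3 μg/kg 7 followed, *F7*, *Serpinc1*, *Plg* and *C4bp* lower and *C8b*, *Cfi* and *C5ar1* higher. Of these, *C8b* and *Cfi* were at 0.71 and 0.27 on the log2 scale at 0.01 μg/kg already, without a call by edgeR. At 10 μg/kg 7 more followed, *Kng1*, *Fgb*, *Fgg*, *Pros1*, *Mbl2* and *C9* lower and *Vtn* higher. Without scaling the 3 μg/kg calls of *Serpinc1*, *Plg* and *C4bp* were lost, as were the 10 μg/kg calls of *Kng1*, *Fgb*, *Fgg* and *Pros1*. The last 10 were called at 30 μg/kg alone, though the C1q chains were called at 3 and 10 μg/kg as well in a fit of only the groups compared. That fit also called *C1qc* at 1 μg/kg (0.67, adjusted p = 0.03444). Without the mice that stood apart *C1qc* was called at 3 and 10 μg/kg (adjusted p = 0.03104 and 0.04913). The other 19 were not called at any dose. Without the pair of mice that stood apart the counts at 1, 3, 10 and 30 μg/kg were 2, 12, 18 and 24. A trend over dose rank was called for 29 of the 45 (23 falling, 6 rising), against 40.5% of all genes (19.7% falling, 20.8% rising). The falls include *Cfd*, with reads in 7 mice only, whose call was lost with DESeq2 and limma, and without it 28 of 44 were called (22 falling, 6 rising). Between vehicle and 30 μg/kg, the mice of the groups did not overlap for 18 of the 45, against 19.9% of all genes.

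**Figure D5:**
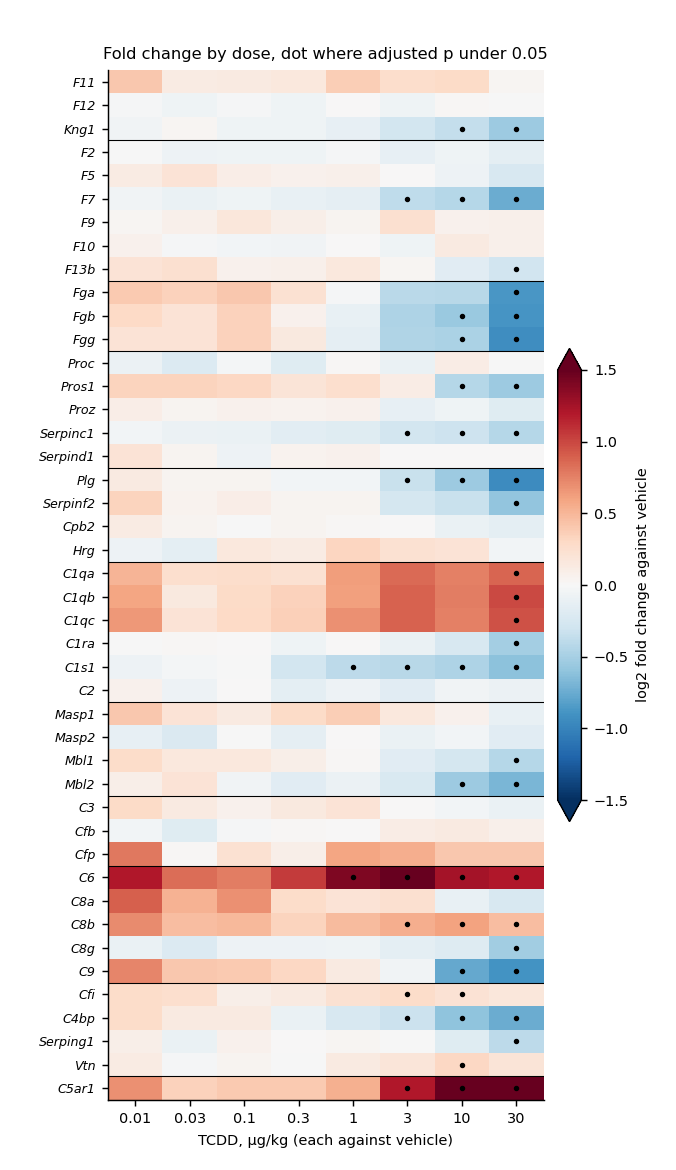
Log2 fold change against vehicle (colour, clipped at 1.5 either way) of 44 genes (rows, in the order of their roles, lines between roles) at 8 TCDD doses (columns, μg/kg); black dots mark adjusted p under 0.05, and *Cfd* is left out. Calls begin with *C6* and *C1s1* at 1 μg/kg and are most frequent at 30 μg/kg, where 24 genes carry a dot.

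Further genes of the pathways, taken from lists that are not part of the module, also moved both ways at 30 μg/kg. At that dose 29.6% of all genes were called, 15.5% higher and 14.1% lower. Among genes averaging at least 10 CPM, 11.1% were called higher and 23.6% lower. Of 29 other complement genes tested, 17 were called, 9 higher and 8 lower. Component C5 (*Hc*) fell from 776 ± 89.1 to 382 ± 49.4 CPM (SD, n = 5), and clusterin (*Clu*) fell by 0.62 on the log2 scale. The C3a receptor *C3ar1* rose by 1.39 and the integrin *Itgax* by 2.41. Of 27 other coagulation and fibrinolysis genes tested, 16 were called, 11 higher and 5 lower. *F2rl1*, a protease-activated receptor, rose by 3.54 on the log2 scale (0.124 to 0.505 CPM in vehicle mice, 2.95 to 6.04 CPM at 30 μg/kg, adjusted p = 1.509e-10), and thrombomodulin (*Thbd*) and von Willebrand factor (*Vwf*) by 1.36 and 1.24. The largest fall of this list was that of the fibrinogen-like gene *Fgl1*, by 1.18, followed by *Kng2*, by 0.98. *Apoh*, which binds phospholipid, fell by 0.66. *Itgax*, *Hc* and *Fgl1* were named by a rule of size, and the others were chosen after their values were seen. Of the 3 vitamin K cycle genes, *Ggcx*, the carboxylase that matures the vitamin K-dependent factors, rose by 0.40 and the other 2 were not called. Of 10 liver transcription factors 2 fell (*Cebpa* by 0.90 and *Nr5a2* by 0.45), while *Hnf4a* and *Stat3* were at 0.11 and -0.15 and were not called. Of 8 hepatocyte markers 6 fell, among them *Apoa1* by 1.67, and *Alb* was at -0.08 ± 0.11.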

How the data were processed

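Liver RNA of 45 mice was sequenced as single 50-base reads from libraries made with the Illumina TruSeq RNA kit. Per the labels and the study's methods, the authors mapped reads to GRCm38 with TopHat 1.4.1, used SAMtools 0.1.19, and deposited raw counts per Ensembl gene from HTSeq 0.6.1. The strand setting is not given in the sources used here, so overlapping antisense reads cannot be told apart. The 5 HTSeq summary lines were left out (reads on no feature 9.11 to 17.08% and ambiguous reads 1.34 to 2.07% of uniquely aligned reads).

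Genes with more than 4 reads in any mouse were tested with edgeR 4.0.16 (R 4.3.3), TMM scaling and the quasi-likelihood test, all 45 mice in 1 fit with 1 coefficient per group. P-values were adjusted by Benjamini-Hochberg within each comparison, and called means adjusted p under 0.05. The trend used dose rank as a number. CPM in permutation tests were log2 values with a prior count of 2. Groups came from the labels, and replicate numbers follow the order of the samples. The comparisons with vehicle share its 5 mice. Alternatives were DESeq2 1.42.0, limma 3.58.1 on variance-stabilized counts, DESeq2 size factors, no scaling, other filters on low counts, only the groups compared, and each mouse left out. The edgeR and DESeq2 fits without both mice that stood apart were chosen after seeing the data. The test scripts were tested on simulated data. Positions and exon lengths came from GENCODE M21, a later release than the counts, and promoters from RefSeq. Members and lists were chosen with earlier results of these data known. Genes given mouse by mouse are, by rule, the smallest p of each role and the 5 largest rises and falls. Some items of the lists are not reported here.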

Additional observations from a re-analysis of the deposited data

Results flagged for a closer look

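Among the 17 genes given mouse by mouse, 153 groups of 5 mice were examined for a single mouse far from the other 4 (Dixon's test at 95%), and 17 groups had one. Chance alone gives about 1 in 20 groups. No cause was tested.

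At 0.01 μg/kg replicate 5 was the outlying mouse for *C6* (44.3 CPM), *C1qa* (77.5 CPM), *C1qb* (81.4 CPM), *C1qc* (85.3 CPM) and *C4bp* (828 CPM). Its macrophage markers summed to 1079.8 CPM against 164 to 320.1 in the other 4 mice. At the same dose *F7* was highest in replicate 4, at 168 CPM. At 0.1 μg/kg replicate 5 was the outlying mouse for *Fga* and *Fgb* (8534 CPM each) and *Fgg* (5974 CPM). *C5ar1* had 1 mouse at 1.14 CPM at 0.3 μg/kg.

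*Cfd* was flagged in 7 groups because 1 mouse had reads and the other 4 had none, at 0.152 CPM in vehicle, 0.397 CPM at 0.01, 0.0786 CPM at 0.03, 0.019 CPM at 0.1, 0.0784 CPM at 0.3, 0.0281 CPM at 1 and 0.035 CPM at 3 μg/kg. These are values at the limit of detection.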

How the results depend on the processing

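No paired analysis was possible because the labels give no replicate numbers, so the numbers only name the mice. The count of members called at 30 μg/kg was 24 and ranged from 23 to 26 over the alternatives other than leaving out a mouse, and with 1 mouse left out it ranged from 19 to 26 (17 to 21 lower, 2 to 7 higher). The 2 came without replicate 2 or replicate 3 at 30 μg/kg, and 3 were higher without vehicle replicate 1, 2, 3 or 4 or replicate 5 at 30 μg/kg. With 1 mouse left out, 1 to 2 members were called at 1 μg/kg, 6 to 9 at 3, 13 to 15 at 10, 0 at each lower dose, 0 to 4 between 30 and 10 μg/kg, and 29 to 31 for the trend (6 to 8 rising, 22 to 24 falling). The 0 between 30 and 10 μg/kg came without replicate 2 at 30 μg/kg, and 4 came without replicate 4.

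DESeq2 called 3 members at 0.01 and 1 at 0.3 μg/kg (0.195% and 0.767% of all genes), where edgeR called 0. DESeq2 without both mice that stood apart, added after seeing the data, called 0 at 0.01, 1 at 0.3, 4 in place of 2 at 1 and 15 in place of 9 at 3 μg/kg. A fit of only the groups compared called 14 at 3 μg/kg in place of 9, 0 in place of 1 between 30 and 10 μg/kg, and 3 in place of 6 rising in the trend. Without scaling beyond library size 11 members in place of 6 were higher at 30 μg/kg, 0 were called between 30 and 10 μg/kg, and 14 rose in the trend. Of all 17464 genes, 6218 were then called at 30 μg/kg (1222 lower) and 7782 in the trend (1803 lower). Under that scaling the log2 fold changes of *F12* (0.20), *Proc* (0.20), *Hrg* (0.17), *C2* (0.12), *C3* (0.12), *Masp1* (0.11), *Cpb2* (0.06), *F2* (0.06), *Masp2* (0.04) and *Proz* (0.03) turned positive, and *F12* was called. With another filter on low counts (filterByExpr) *F12* and *Proc* were each at 0.02. With 1 mouse left out the sign turned in some fits for *F12* (-0.09 to 0.03), *Hrg* (-0.13 to 0.01), *Masp1* (-0.28 to 0.07), *Proc* (-0.08 to 0.04), *F9* (-0.08 to 0.13) and *F11* (-0.08 to 0.11). *F9* was called without scaling, at 0.29 (adjusted p = 0.02769).

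With 5 mice in each group, genes near 1 CPM rest on few reads, *C5ar1* on 3 to 13 in vehicle. For *Cfd* the fits without replicate 5 at 0.01 μg/kg gave no value.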
